A study of Mus musculus with 8 samples.

Results

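The genes described here make and break down cyclic AMP in mouse neutrophils. They are 4 adenylyl cyclases (Adcy3, Adcy4, Adcy7 and Adcy9), 5 phosphodiesterases that hydrolyse cyclic AMP (Pde4a, Pde4b, Pde4d, Pde7a and Pde3b) and Gnas, which encodes the stimulatory G protein alpha subunit. They were picked by symbol through the gene identifier of each row, 10 of 49315 identifiers in the count tables, and all 10 were among the 14909 genes that passed the filter on low counts. RNA was sequenced from casein-elicited peritoneal neutrophils of C57BL/6 mice aged 2 months that were either H2R deficient or wild type, and each genotype was split into low-density and high-density cells. Injected casein, a protein of milk, provokes a peritonitis rich in neutrophils. The 4 groups of 2 libraries were H2R-deficient low-density, H2R-deficient high-density, wild-type low-density and wild-type high-density cells, numbered 1 and 2 in the deficient and 2 and 4 in the wild-type groups. All cells had been elicited with casein, so no unstimulated group is compared. The labels give neither the construction of the deficient line nor the number of animals behind a library, so p-values reflect how far these libraries vary among themselves, which could be technical variation alone.

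H2R is the histamine H2 receptor, which couples to the stimulatory G protein and so activates membrane adenylyl cyclases, the enzymes that turn ATP into cyclic AMP. Phosphodiesterases hydrolyse the messenger and end the signal, and the PDE4 enzymes carry most of this activity in neutrophils, where cyclic AMP restrains the oxidative burst, degranulation and adhesion. Cyclic AMP acts mainly through protein kinase A, which phosphorylates CREB family factors. These bind the cyclic AMP response element, and some phosphodiesterase genes, Pde4b and Pde4d among them, are themselves induced by cyclic AMP in several cell types.

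The libraries held 19862716 to 24199215 counts assigned to genes. Scaling factors by the trimmed mean of M values (TMM), which correct for a few genes taking a large share of the counts, were 1.11 to 1.49 in low-density and 0.742 to 0.808 in high-density libraries, so the scaling and the density groups moved together. The targeted gene, Hrh2, had 435 and 215 counts in H2R-deficient low-density, 599 and 275 in H2R-deficient high-density, 556 and 830 in wild-type low-density and 2003 and 700 in wild-type high-density libraries, so its transcript was still counted in the deficient cells. All 14 mature neutrophil markers were present in every library. On the TMM scale 14 passed as lower at low density in H2R-deficient and 4 in wild-type cells (edgeR, adjusted p under 0.05). The median log2 fold changes of these markers were -1.65 and -0.79. With total counts 9 and 1 passed as lower, and the medians of these markers were -0.75 and -0.22. Their summed level was 20322 to 29102 CPM (counts relative to the TMM-scaled library size) in H2R-deficient low-density, 76567 to 78534 in H2R-deficient high-density, 34446 to 48393 in wild-type low-density and 69290 to 75932 in wild-type high-density libraries. Dendritic cell markers (10 genes) summed to 480 to 708, 13.4 to 18.2, 215 to 461 and 11.8 to 34.9 CPM in the same order of groups, and B cell markers (10 genes) to 927 to 1195, 317 to 350, 437 to 642 and 347 to 379 CPM. Most of the B cell sum at high density came from Cd37, with 4424 to 5525 counts there and 5477 to 6784 at low density. Cd79a had 107 to 166 counts at high and 635 to 4234 at low density. Of the 10 B cell markers, 9 passed as higher at low density in H2R-deficient and 8 in wild-type cells (edgeR, adjusted p under 0.05). Their median log2 fold changes were 3.89 and 2.27. T cell (10 genes) and NK cell (10 genes) lists reached at most 58.1 and 19.8 CPM in a library, both in H2R-deficient low-density cells. Of the NK cell markers 8 passed as higher at low density in H2R-deficient and 5 in wild-type cells (edgeR, adjusted p under 0.05). The NK cell medians on the log2 scale were 2.90 and 2.89. Of the T cell markers 1 and 3 passed as higher. The 6 markers of dividing cells summed to 214 to 290, 104 to 106, 165 to 202 and 107 to 145 CPM. Mki67 supplied most of the high-density sum, with 1066 to 1489 counts there and 2208 to 4184 at low density. Top2a had 21 to 61 counts at high and 481 to 1894 at low density. All 6 passed as higher at low density in H2R-deficient and 4 in wild-type cells (edgeR, adjusted p under 0.05). Their median log2 fold changes were 4.01 and 2.91. Further lists were those of macrophages (12 genes), monocytes (8 genes), eosinophils (8 genes), mast cells (8 genes) and erythroid cells (6 genes). The mast cell list holds Hdc, which neutrophils also express. On the TMM scale each of these lists reached a lower summed maximum in low-density than in high-density libraries of the same genotype. Gene by gene, 6 of the 12 macrophage markers passed as higher and 3 as lower at low density in H2R-deficient cells (edgeR, adjusted p under 0.05; median log2 fold change 1.07) and 0 in wild-type cells. Of the 8 monocyte markers, 3 passed as higher and 2 as lower in H2R-deficient cells, and 1 as higher and 2 as lower in wild-type cells. Their median log2 fold changes were -0.49 and -0.14. Over all tested genes 30.0% passed as higher and 23.9% as lower in H2R-deficient cells, and 8.51% and 4.15% in wild-type cells. The monocyte shares in H2R-deficient cells were near these. Within this mixed monocyte list, the receptor gene Ccr2 had 888 to 1200 counts in low-density and 60 to 310 in high-density libraries. Nr4a1 of the same list had 5229 to 8469 in low-density and 6232 to 17830 in high-density libraries. The eosinophil peroxidase gene Epx was at 0 in 7 of the 8 libraries, while the B cell gene Cd79a was above 0 throughout. Other eosinophil markers were counted in every library, such as Siglecf at 192 to 658 and Ccr3 at 155 to 489 counts. Dendritic cell, B cell, NK cell and dividing cell markers therefore rose with low density. On the TMM scale mature neutrophil markers fell in H2R-deficient cells, and 4 of the 14 did in wild-type cells. Macrophage and monocyte markers went both ways in H2R-deficient cells on that scale. The part of other cells and dividing cells in the density results below was not tested. In bulk RNA, fewer cells of a type and less RNA per cell cannot be told apart.

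Of the 10 genes, 8 had RefSeq promoter windows on build GRCm38.p6, taken as the 250 bases before each annotated start, 19 windows in all. Pde7a and Pde3b were not matched. The windows were searched on both strands for the cyclic AMP response element TGACGTCA and its half-site TGACG, which lies within it. The full element occurred in 0 of the 19 windows and in 1.55% of the 32851 promoters in the table, and the half-site in 7 windows (36.8%) of Adcy7, Adcy9, Pde4a, Pde4b and Gnas, against 17.8% of all promoters. Of the 3 Gnas windows with a half-site, 2 overlap and hold the same site, at -38 and -57 from their starts, so 1 site is counted in both. Below are the Adcy7, Adcy9 and Pde4a windows that hold a half-site and touch no annotated exon, and 30 bases around the half-site of Pde4b, because these genes include the most abundant cyclase and phosphodiesterase of the set. Capitals mark the half-site on either strand (TGACG or CGTCA), counted from -1 at the base before the start: it begins at -28 in Adcy7, -24 in Adcy9, -50 in Pde4a and -34 in Pde4b.
Adcy7 (chr8:88282742-88282991, plus strand): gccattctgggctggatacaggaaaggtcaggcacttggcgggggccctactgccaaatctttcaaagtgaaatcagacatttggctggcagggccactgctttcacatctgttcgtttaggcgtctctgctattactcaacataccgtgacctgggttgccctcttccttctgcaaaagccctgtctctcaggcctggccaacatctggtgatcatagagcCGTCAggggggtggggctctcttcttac
Adcy9 (chr16:4420499-4420748, minus strand): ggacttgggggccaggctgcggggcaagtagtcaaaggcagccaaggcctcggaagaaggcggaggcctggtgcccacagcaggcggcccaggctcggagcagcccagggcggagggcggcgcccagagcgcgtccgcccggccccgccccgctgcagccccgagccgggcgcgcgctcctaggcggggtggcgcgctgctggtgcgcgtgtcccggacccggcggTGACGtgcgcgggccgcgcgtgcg
Pde4a (chr9:21183851-21184100, plus strand): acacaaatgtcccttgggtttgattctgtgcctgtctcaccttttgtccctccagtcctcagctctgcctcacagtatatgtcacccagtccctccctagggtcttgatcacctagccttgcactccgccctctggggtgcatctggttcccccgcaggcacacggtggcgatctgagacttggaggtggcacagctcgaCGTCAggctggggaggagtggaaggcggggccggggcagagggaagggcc
Pde4b (chr4:102421508-102421537, plus strand): tgatttggctgcaCGTCAattttctcatct
A match of letters describes the sequence and shows no binding. Several of these genes have more than 1 start, and gene-level counts do not say which was used.

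Per kilobase of exon, which allows levels of different genes to be compared, Pde4b led in all 4 groups and was followed by Gnas and Adcy7. Pde4b averaged 29.9 ± 0.98 CPM per kilobase in H2R-deficient low-density, 62.7 ± 7.5 in H2R-deficient high-density, 37.5 ± 8.5 in wild-type low-density and 82.6 ± 6.2 in wild-type high-density cells (SD, n = 2 each). Gnas stood at 7.70 ± 0.23, 7.11 ± 0.15, 6.49 ± 0.39 and 6.47 ± 0.38 and Adcy7 at 6.55 ± 0.47, 3.31 ± 1.08, 5.45 ± 0.21 and 4.04 ± 0.27 CPM per kilobase in the same order. Library ranges of these 3 genes did not overlap within a group. The other 7 lay at or below 2.89 CPM per kilobase in group mean. Pde4d was the fourth in all groups except H2R-deficient low-density cells, where Pde3b (1.73 ± 0.05) was above it (1.58 ± 0.12). At the low end Adcy3, Adcy9 and Pde4a were close: Adcy3 overlapped Adcy9, and Adcy9 overlapped Pde4a, in H2R-deficient high-density cells, and Adcy9 overlapped Adcy3, and Adcy3 overlapped Pde4a, in wild-type low-density cells. Library ranges also overlapped for Adcy4 and Pde4a in H2R-deficient low-density, Pde4d and Adcy4 in wild-type low-density and Pde3b and Adcy4 in wild-type high-density cells. Pde4a was the lowest in 3 groups, and Adcy9 (0.247 ± 0.110) in H2R-deficient low-density cells.

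**Figure D1:**
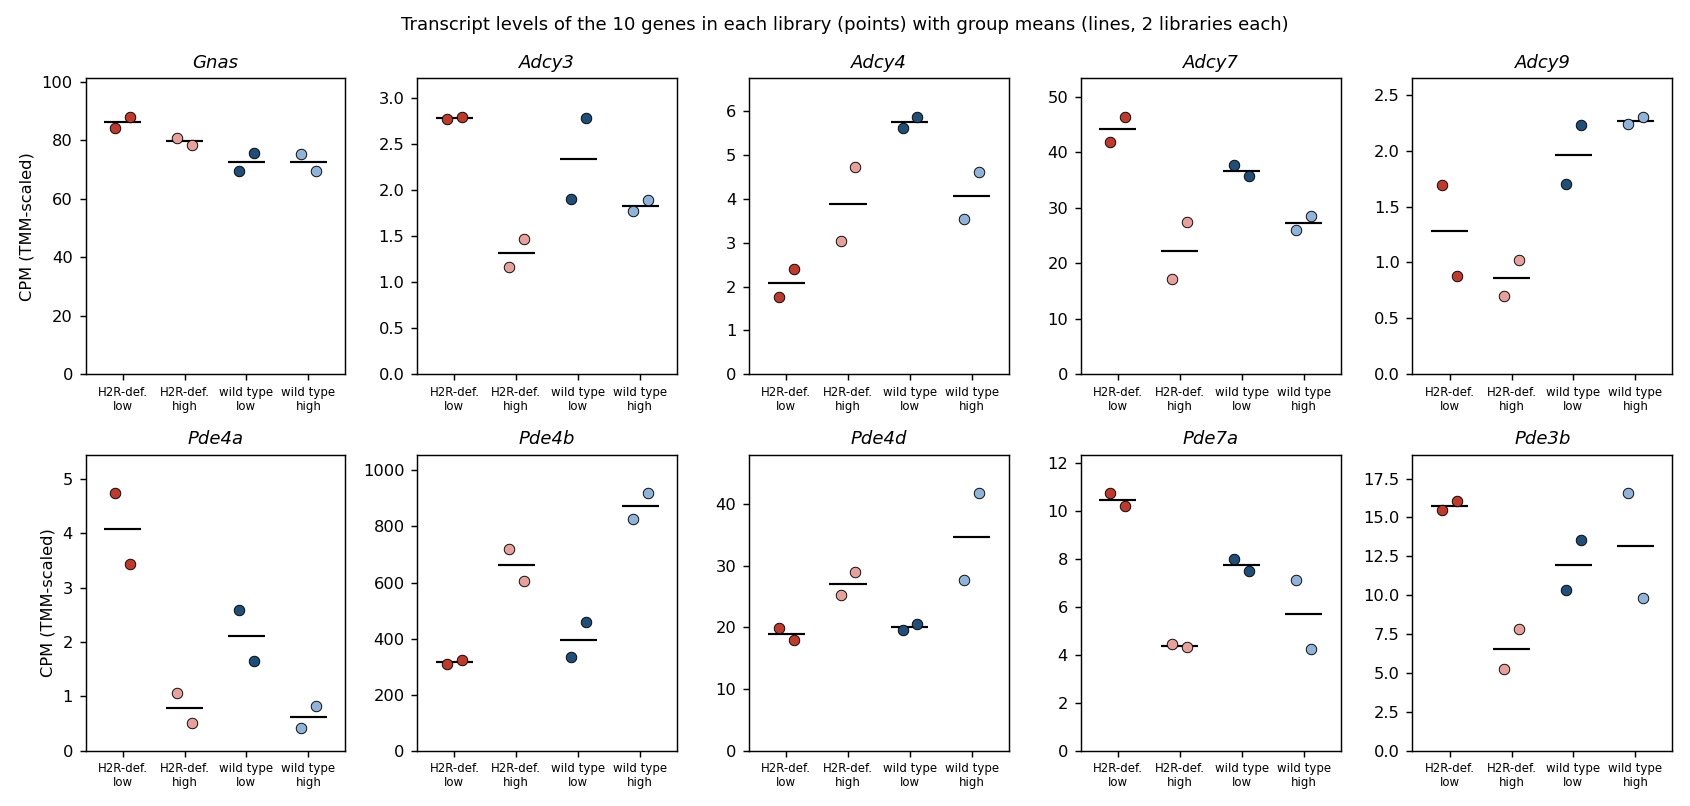
Each panel shows 1 gene, with the level in CPM over TMM-scaled library sizes on a linear vertical axis from 0; points are libraries and lines the means of 2 libraries. Pde4b was lower in all low-density than in all high-density libraries on this scale, although the H2R-deficient groups overlapped with total counts, and Gnas stayed between 69.4 and 87.9 CPM.

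Low-density cells of both genotypes had less Pde4b and more Pde4a than high-density cells on the TMM scale, while Gnas did not pass the test in either genotype. In H2R-deficient cells 5 of the 10 genes rose with low density (Adcy3, Adcy7, Pde4a, Pde7a and Pde3b), 2 fell (Adcy4 and Pde4b) and 3 did not pass (Adcy9, Pde4d and Gnas), at an adjusted p under 0.05. In this comparison 54.0% of all tested genes passed, 30.0% as higher and 23.9% as lower, so the share of these genes that passed was near the background. In wild-type cells 1 rose (Pde4a) and 2 fell (Pde4b and Pde4d), against 12.7% of all tested genes, 8.51% higher and 4.15% lower. The median log2 fold change of the 10 genes was 0.79 in H2R-deficient and 0.18 in wild-type cells, against 0.10 and 0.10 over all tested genes. Scaling mattered: with libraries scaled by total counts only, the median of all tested genes moved to 1.0 in H2R-deficient and 0.67 in wild-type cells. Of the 10 genes, 7 and 5 then passed as higher and 0 and 1 as lower. Under that scaling 8077 and 4946 of the 14909 tested genes passed in either direction.

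Gnas encodes the subunit that carries the signal of receptors such as H2R to the cyclases. It had 84.3 and 87.9 CPM in H2R-deficient low-density, 80.8 and 78.4 in H2R-deficient high-density, 69.6 and 75.7 in wild-type low-density and 75.4 and 69.4 in wild-type high-density libraries. The low-density libraries were slightly above the high-density ones in deficient cells, and the wild-type groups overlapped. The log2 fold change was 0.11 ± 0.16 (SE) in H2R-deficient cells, with a 95% interval of -0.24 to 0.47, and 0.01 ± 0.16 in wild-type cells, with an interval of -0.35 to 0.36 (edgeR quasi-likelihood test with Benjamini-Hochberg adjustment, adjusted p = 0.555 and 0.985). With total counts it was 1.02 and 0.58 and passed in both genotypes (edgeR, adjusted p = 0.00054 and 0.0243), close to the all-gene medians of that scaling. The wild-type value turned to -0.07 with DESeq2 size factors. The gene (ENSMUSG00000027523) spans chr2:174284320-174346744 on the plus strand of GRCm38, and its count sums several transcripts. Of its exon bases 8.83% overlap Nespas (0 to 4 counts) and 13.1% overlap Gm20721 (14 to 39 counts) on the opposite strand. The sources used here do not give the strand setting of the counting, so reads of such pairs cannot be told apart.

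Adcy7, the most abundant member of the cyclase set and a cyclase typical of blood cells, rose with low density in H2R-deficient cells. Its counts were 1513 and 1313 in H2R-deficient low-density, 293 and 430 in H2R-deficient high-density, 931 and 913 in wild-type low-density and 440 and 483 in wild-type high-density libraries. In CPM these were 41.9 and 46.4, 17.1 and 27.4, 37.7 and 35.7, and 25.9 and 28.5. All low-density libraries lay above all high-density libraries. On the log2 scale the change was 0.99 ± 0.23 in H2R-deficient cells, where it passed (edgeR, adjusted p = 0.00582), and 0.43 ± 0.23 in wild-type cells, where it did not (edgeR, adjusted p = 0.208). With total counts the wild-type change was 1.01 and passed (edgeR, adjusted p = 0.0107). Adcy7 (ENSMUSG00000031659) lies at chr8:88272403-88329962 on the plus strand.

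The other 3 cyclases of the set were at low levels. Adcy3, best known as the cyclase of olfactory neurons, had 2.77 and 2.79 CPM in H2R-deficient low-density, 1.17 and 1.47 in H2R-deficient high-density, 1.90 and 2.78 in wild-type low-density and 1.77 and 1.89 in wild-type high-density libraries. Low-density libraries were above high-density ones in each genotype, by a wide margin only in deficient cells. Adcy3 rose among the deficient libraries (log2 fold change 1.08 ± 0.34, edgeR adjusted p = 0.0253), and the wild-type change of 0.36 ± 0.34 missed the threshold (edgeR adjusted p = 0.479). Without any 1 of the 4 H2R-deficient libraries the deficient change, 0.93 to 1.25, no longer passed: leaving out low-density library 1 or 2 gave an edgeR adjusted p of 0.0932 or 0.0901, and leaving out high-density library 1 or 2 gave 0.122 or 0.0532. DESeq2 did not call it either (1.03, adjusted p = 0.0623). Adcy3 (ENSMUSG00000020654, chr12:4133103-4213525, plus strand) shares 22.1% of its exon bases with Cenpo on the opposite strand, which had 51 to 164 counts.

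Adcy4, a cyclase stimulated by G protein beta-gamma subunits together with the alpha subunit, went in different directions in the 2 genotypes on the TMM scale. It had 1.77 and 2.40 CPM in H2R-deficient low-density, 3.04 and 4.72 in H2R-deficient high-density, 5.63 and 5.87 in wild-type low-density and 3.53 and 4.60 in wild-type high-density libraries. The H2R-deficient low-density libraries were the lowest of all and the wild-type low-density libraries the highest. With density the log2 fold change was -0.89 ± 0.32 in H2R-deficient cells, where it passed (edgeR, adjusted p = 0.0376), and 0.50 ± 0.31 in wild-type cells, where it did not (edgeR, adjusted p = 0.278). With total counts the deficient change was 0.0072 and the wild-type change 1.07, which passed (edgeR, adjusted p = 0.0275). The deficient call was lost with no filter (-0.79, edgeR adjusted p = 0.0763) and with only the groups compared (-0.79, edgeR adjusted p = 0.0921). It was also lost without low-density library 1 (-0.68), low-density library 2 (-1.12) or high-density library 2 (-0.54) of that genotype, or without either wild-type low-density library (-0.89 without library 2 and -0.87 without library 4). Counts were 64 and 68, 52 and 74, 139 and 150, and 60 and 78 in the same order of groups. Adcy4 (ENSMUSG00000022220) lies at chr14:55769058-55784042 on the minus strand in the files.

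Adcy9, a widely expressed cyclase, had 12 to 61 counts per library. Its CPM was 1.69 and 0.88 in H2R-deficient low-density, 0.70 and 1.02 in H2R-deficient high-density, 1.70 and 2.23 in wild-type low-density and 2.24 and 2.30 in wild-type high-density libraries. The deficient groups overlapped, and the wild-type low-density libraries lay just below the high-density ones. The density change was 0.59 ± 0.45 in H2R-deficient and -0.21 ± 0.42 in wild-type cells on the log2 scale, and neither passed (edgeR, adjusted p = 0.283 and 0.752). With total counts these were 1.51, which passed (edgeR, adjusted p = 0.0208), and 0.35. Adcy9 (ENSMUSG00000005580) lies at chr16:4287529-4420498 on the minus strand.

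Pde4b, the PDE4 enzyme that is induced by inflammatory stimuli in leukocytes, was the most abundant gene of the set and fell with low density on the TMM scale. It had 308 and 323 CPM in H2R-deficient low-density, 718 and 606 in H2R-deficient high-density, 333 and 459 in wild-type low-density and 826 and 918 in wild-type high-density libraries. No low-density library reached the lowest high-density library. The log2 fold change was -1.07 ± 0.21 in H2R-deficient cells and -1.14 ± 0.21 in wild-type cells (edgeR, adjusted p = 0.00245 and 0.0149), or 0.477 and 0.455 of the high-density level. With total counts the deficient change of -0.17 was not called (edgeR, adjusted p = 0.481), and the wild-type change of -0.58 was (edgeR, adjusted p = 0.0403). The deficient call held without any 1 library, at -1.19 to -0.93. The wild-type call was lost without high-density library 2 (-1.21, edgeR adjusted p = 0.0652) or low-density library 2 (-0.92, edgeR adjusted p = 0.108). Pde4b (ENSMUSG00000028525) spans chr4:102087543-102607259 on the plus strand.

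Pde4d, another PDE4 gene, went the same way on the TMM scale with a smaller change. It had 20.0 and 17.9 CPM in H2R-deficient low-density, 25.2 and 28.9 in H2R-deficient high-density, 19.6 and 20.5 in wild-type low-density and 27.6 and 41.7 in wild-type high-density libraries. Low-density libraries were below all high-density libraries. Its log2 fold change of -0.79 ± 0.22 passed in wild-type cells (edgeR, adjusted p = 0.0453) and that of -0.51 ± 0.22 did not in H2R-deficient cells (edgeR, adjusted p = 0.0732). The wild-type call was lost when any 1 of the 8 libraries was left out, with a range of -1.05 to -0.46 (edgeR, adjusted p = 0.0564 to 0.207). The deficient value passed without either wild-type high-density library (-0.51 in both cases, edgeR adjusted p = 0.0315 without 2 and 0.0318 without 4), with DESeq2 size factors (-0.56, edgeR adjusted p = 0.0454) and with DESeq2 (-0.56, adjusted p = 0.0490). With total counts it turned to 0.40 and the wild-type value was -0.22, and neither passed. Pde4d (ENSMUSG00000021699) spans chr13:108449948-109953461 on the plus strand.

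Pde4a, the third PDE4 gene of the set, rose with low density in both genotypes from very few counts. Its counts were 171 and 97 in H2R-deficient low-density, 18 and 8 in H2R-deficient high-density, 64 and 42 in wild-type low-density and 7 and 14 in wild-type high-density libraries. Every low-density library had more counts than every high-density library. The log2 fold change was 2.37 ± 0.48 in H2R-deficient cells and 1.76 ± 0.50 in wild-type cells (edgeR, adjusted p = 0.00330 and 0.0493), and 3.28 and 2.34 with total counts. The deficient call held without any 1 library, at 1.95 to 2.99. The wild-type call did not hold with limma-voom (adjusted p = 0.0781), with DESeq2 size factors (edgeR, adjusted p = 0.0518), or without any 1 wild-type library, at 1.35 without high-density library 2, 2.34 without high-density library 4, 1.40 without low-density library 2 and 2.06 without low-density library 4, nor without H2R-deficient low-density library 1 (1.77, adjusted p = 0.0751) or 2 (1.77, adjusted p = 0.0736). Pde4a (ENSMUSG00000032177) lies at chr9:21165714-21213248 on the plus strand.

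Pde3b, a phosphodiesterase that cyclic GMP inhibits, and Pde7a, a phosphodiesterase with a high affinity for cyclic AMP that is found in lymphocytes, both rose with low density in H2R-deficient cells. Pde3b had 15.5 and 16.1 CPM in H2R-deficient low-density, 5.25 and 7.84 in H2R-deficient high-density, 10.4 and 13.5 in wild-type low-density and 16.5 and 9.79 in wild-type high-density libraries. Deficient libraries were separated by density, and wild-type libraries overlapped. Its log2 fold change was 1.27 ± 0.30 in H2R-deficient cells (edgeR, adjusted p = 0.00637) and -0.14 ± 0.29 in wild-type cells (edgeR, adjusted p = 0.759). The wild-type value turned to 0.43 with total counts, and the deficient call was lost without H2R-deficient high-density library 1 (1.01, edgeR adjusted p = 0.0549). Pde7a had 10.7 and 10.2 CPM in H2R-deficient low-density, 4.44 and 4.34 in H2R-deficient high-density, 8.02 and 7.51 in wild-type low-density and 7.13 and 4.25 in wild-type high-density libraries. Low density was above high density in each genotype, with the wild-type high-density libraries far apart. The Pde7a change was 1.26 ± 0.26 in H2R-deficient cells (edgeR, adjusted p = 0.00378) and 0.45 ± 0.26 in wild-type cells (edgeR, adjusted p = 0.255), and with total counts the wild-type change was 1.03 and passed (edgeR, adjusted p = 0.0191). Pde3b (ENSMUSG00000030671) spans chr7:114415281-114539251 on the plus strand and Pde7a (ENSMUSG00000069094) chr3:19223108-19311322 on the minus strand.

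**Figure D2:**
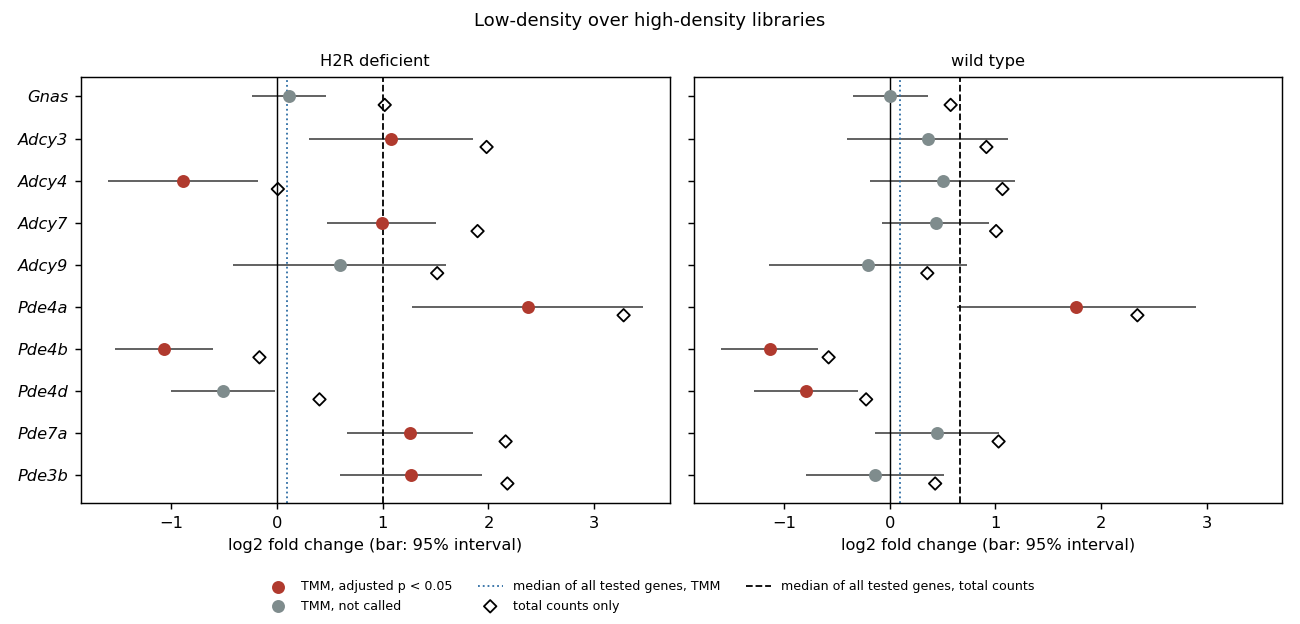
Low over high density in H2R-deficient (left) and wild-type (right) cells, with log2 fold changes on the horizontal axis; circles with 95% intervals are TMM-scaled, red where the adjusted p was under 0.05, diamonds are scaled by total counts only, and vertical lines mark the medians of all tested genes under each scaling. Pde4b lay below the median of its own scaling in both panels, and Adcy4 and Pde4d of H2R-deficient and Adcy9 and Pde3b of wild-type cells changed sign with total counts.

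Proportions within an enzyme family do not depend on library scaling, and those of Adcy7, Adcy6 and Adcy4 did not overlap between the densities. The cyclase transcripts of 10 genes and the phosphodiesterase transcripts of 16 genes were summed per kilobase; these sums and their ratios were chosen after values had been seen and carry no test. Adcy7 made up 44.8% and 43.8% of cyclase transcripts in H2R-deficient low-density, 64.7% and 66.5% in H2R-deficient high-density, 40.0% and 49.6% in wild-type low-density and 68.6% and 64.7% in wild-type high-density libraries. Adcy6, a cyclase inhibited by calcium that is not among the 10 genes, made up 45.7% and 47.7%, 1.73% and 3.63%, 43.4% and 25.8%, and 0.523% and 2.25% in the same order. Among cyclase transcripts, high-density libraries thus held mainly Adcy7 and Adcy4, and low-density libraries Adcy7 and Adcy6. The part of other cell types in these shares was not tested. Adcy4 took 3.64% and 4.36% in H2R-deficient low-density, 22.1% and 22.0% in H2R-deficient high-density, 11.5% and 15.7% in wild-type low-density and 18.0% and 20.1% in wild-type high-density libraries. A share is relative, so a rise of 1 gene lowers the shares of the others without a fall in their level. In CPM, Adcy7 in both genotypes and Adcy4 in wild-type libraries were higher at low density, although their shares were lower. Among phosphodiesterases Pde4b held 37.9% to 46.8% in low-density and 44.3% to 50.4% in high-density libraries, ranges that overlap, and Pde1b held 26.2% to 41.0% and 32.7% to 36.5%. Some minor shares did not overlap and were higher at low density. These were Pde3b (1.37% to 2.72% against 0.401% to 1.17%) and Pde7a (0.934% to 2.22% against 0.318% to 0.591%), among others. Pde4a (0.207% to 0.991% against 0.0346% to 0.0955%) and Pde4c (0.163% to 0.616% against 0.00732% to 0.0355%) went the same way.

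**Figure D3:**
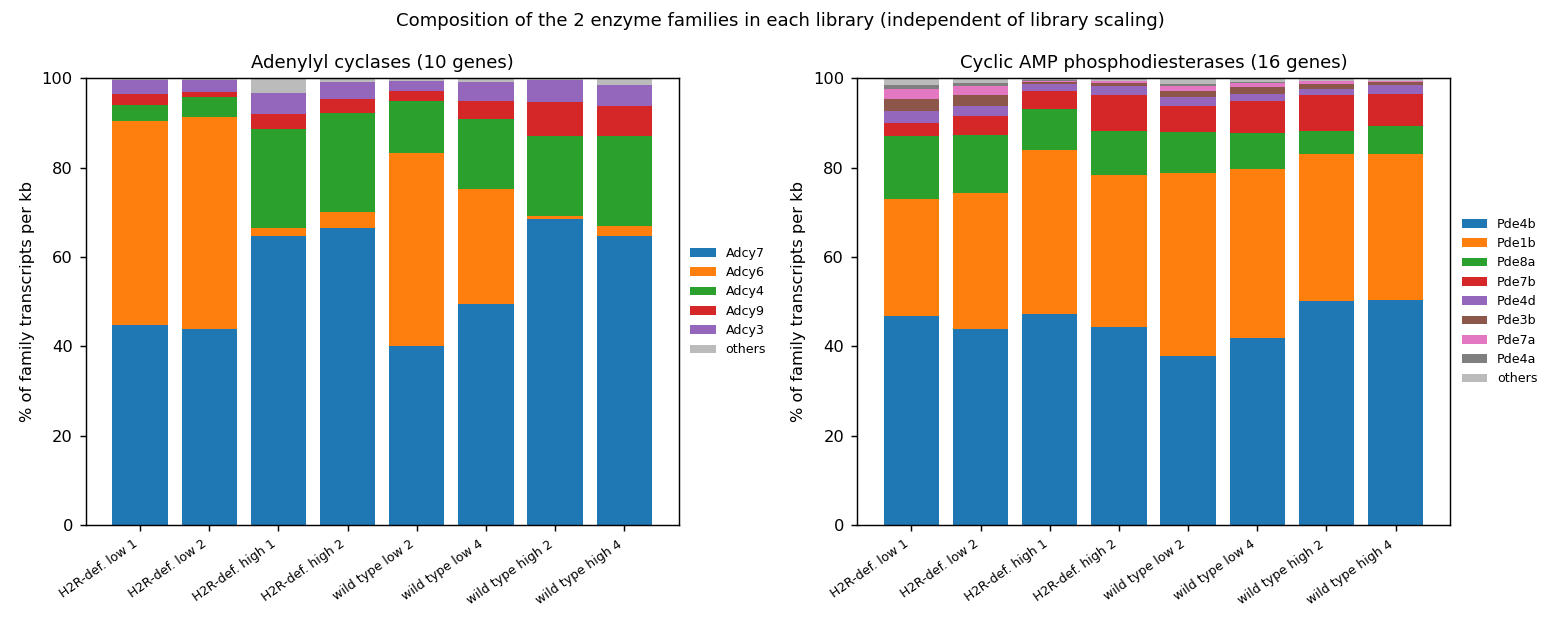
Stacked bars give the percentage of each family's transcripts per kilobase of exon in each of the 8 libraries, for 10 adenylyl cyclase genes (left) and 16 cyclic AMP phosphodiesterase genes (right), with the rarest genes pooled as others. Adcy6 took 25.8% to 47.7% of cyclase transcripts in low-density and 0.523% to 3.63% in high-density libraries.

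The summed cyclase transcripts were higher relative to summed phosphodiesterase transcripts in every low-density library. The ratio averaged 0.224 ± 0.002 in H2R-deficient low-density and 0.0373 ± 0.0142 in H2R-deficient high-density cells, a 6.01-fold difference, and 0.136 ± 0.046 in wild-type low-density and 0.0370 ± 0.0013 in wild-type high-density cells, a 3.67-fold difference (SD, n = 2 each). Without Adcy6 the folds were 3.30 and 2.36, and with counts not divided by length 6.24 and 4.10. The ratio of Gnas to phosphodiesterase transcripts was 0.117 ± 0.006 in H2R-deficient low-density, 0.0522 ± 0.0027 in H2R-deficient high-density, 0.0700 ± 0.0067 in wild-type low-density and 0.0396 ± 0.0052 in wild-type high-density cells, and was likewise higher in every low-density library. Gnas relative to cyclase transcripts went the other way, at 0.521 ± 0.030, 1.49 ± 0.49, 0.539 ± 0.133 and 1.08 ± 0.18 in the same order. A ratio alone shows unequal change and does not say which side moved. The cyclase sum was 10.7 to 15.7 at low and 3.92 to 6.54 CPM per kilobase at high density with TMM. With total counts it was 11.9 to 21.2 and 3.03 to 5.28. The phosphodiesterase sum was 62.4 to 104 at low and 130 to 172 at high density with TMM. With total counts it was 93.2 to 116 and 96.1 to 139, ranges that overlap, though low density was lower within each genotype.

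**Figure D4:**
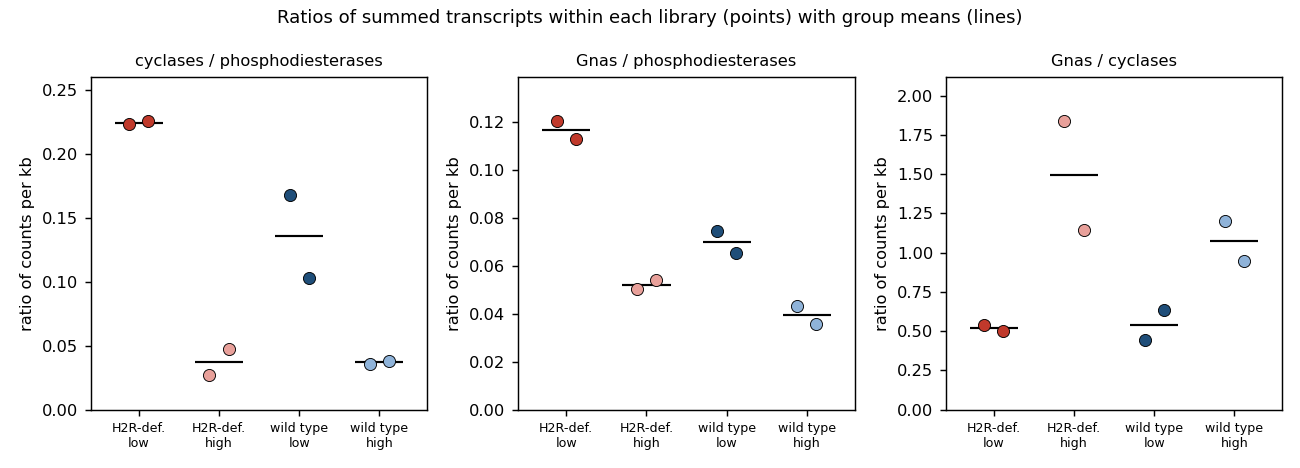
Ratios of counts per kilobase within each library (points) and group means of 2 libraries (lines), on linear axes from 0. In the left panel all 4 low-density libraries, at 0.103 to 0.226, lay above all 4 high-density libraries, at 0.0273 to 0.0473.

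Of the 6 other adenylyl cyclases only Adcy6 passed the filter, and it rose with low density in both genotypes. It had 1382 and 1278 counts in H2R-deficient low-density, 7 and 21 in H2R-deficient high-density, 901 and 424 in wild-type low-density and 3 and 15 in wild-type high-density libraries. The log2 fold change was 5.59 ± 0.65 in H2R-deficient and 5.63 ± 0.69 in wild-type cells (edgeR, adjusted p = 0.000491 and 0.00645). The wild-type call was lost without high-density library 2 (4.90, edgeR adjusted p = 0.0514). The dendritic cell markers given above, such as Ccr7 with 1227 to 4718 counts in low-density and 22 to 116 in high-density libraries, moved the same way, and their part in this result was not tested.

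Of 11 other phosphodiesterases that hydrolyse cyclic AMP, 9 passed the filter. With density 30.0% of all tested genes passed as higher and 23.9% as lower in H2R-deficient cells, and 8.51% and 4.15% in wild-type cells. In H2R-deficient cells 2 of the 9 rose and 4 fell, and in wild-type cells 1 rose and 0 fell, with medians of -0.51 and -0.24 on the log2 scale against 0.10 and 0.10 over all tested genes. Pde1b, which calcium and calmodulin activate, was the most abundant of them at 1748 and 1780 counts in H2R-deficient low-density, 2658 and 2044 in H2R-deficient high-density, 2488 and 2952 in wild-type low-density and 2564 and 2821 in wild-type high-density libraries. Pde1b fell among the deficient libraries on the TMM scale (-1.36 ± 0.20, edgeR adjusted p = 0.000698; -0.47 and not called with total counts). Its wild-type change of -0.55 ± 0.19 missed the threshold (edgeR adjusted p = 0.0823), passed with DESeq2 (-0.62, adjusted p = 0.0228) and was 0.013 with total counts. Pde7b also fell in H2R-deficient cells (-1.74 ± 0.35, edgeR adjusted p = 0.00326; -0.84 with total counts, adjusted p = 0.0343), as did Pde2a (-0.98 ± 0.34) and Pde8a (-0.56 ± 0.19). In wild-type cells Pde7b missed the threshold (edgeR, adjusted p = 0.0781), while it passed as lower with DESeq2 (-1.08, adjusted p = 0.0127), with no filter (-0.96, edgeR adjusted p = 0.000248) and with the replicate block (-1.03, edgeR adjusted p = 0.0107). The Pde2a call was lost without H2R-deficient high-density library 2 (-0.58), either H2R-deficient low-density library (-1.07 without 1 and -0.88 without 2) or wild-type low-density library 4 (-0.95), and it was not made with total counts (-0.06). The Pde8a call was lost without any of the 4 deficient libraries (-0.60 to -0.51), and its value turned to 0.35 with total counts. Pde4c, the fourth PDE4 gene, rose in both genotypes with 77 and 52 counts in H2R-deficient low-density, 1 and 4 in H2R-deficient high-density, 36 and 24 in wild-type low-density and 2 and 2 in wild-type high-density libraries. Its log2 fold changes were 3.65 ± 0.63 and 3.29 ± 0.67 (edgeR, adjusted p = 0.00154 and 0.0203), and the wild-type call was lost without wild-type high-density library 2 (3.29) or 4 (3.29) or low-density library 2 (2.94). Pde3a had 20 and 5 counts, 1 and 0, 6 and 16, and 1 and 1 in the same order and passed in H2R-deficient cells (edgeR, adjusted p = 0.0458), and in wild-type cells only with total counts (3.28, edgeR adjusted p = 0.0441). The deficient call was one that DESeq2 and limma-voom did not make and that was lost without any 1 of 7 libraries. Pde1a, Pde8b and Pde10a did not pass in either genotype on the TMM scale, and Pde10a passed in H2R-deficient cells with total counts (3.16, edgeR adjusted p = 0.0356).

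Downstream components were counted in lists, to be read against the background given above: in H2R-deficient cells 30.0% of all tested genes passed as higher and 23.9% as lower, and in wild-type cells 8.51% and 4.15%. Several of the list counts were near these shares. Counts with total counts have another background: 8077 of 14909 tested genes passed in either direction in H2R-deficient and 4946 in wild-type cells. The median log2 fold changes of all tested genes were then 1.0 and 0.67. Among 15 tested G protein and chaperone genes, 1 rose and 8 fell in H2R-deficient cells and 1 rose in wild-type cells. Gnb4, a beta subunit, rose in both (3.85 ± 0.41 and 2.97 ± 0.41, edgeR adjusted p = 0.000242 and 0.00681). Gnai3, an inhibitory alpha subunit, fell in H2R-deficient cells (-1.39 ± 0.20, edgeR adjusted p = 0.000767), as did Gnb2 (-1.16 ± 0.20) and Gng12 (-1.08 ± 0.20). With total counts 5 of the 15 passed as higher and 1 as lower in H2R-deficient cells, so most of the falls were not called under that scaling. Of 10 protein kinase A genes, 3 rose and 2 fell in H2R-deficient cells and 2 rose in wild-type cells. The kinase inhibitors Pkib (3.18 ± 0.34 in H2R-deficient and 1.45 ± 0.32 in wild-type cells) and Pkig (2.37 ± 0.29 and 0.71 ± 0.28, the wild-type value not passing on this scale but passing with total counts, at 1.29, edgeR adjusted p = 0.0144) and the regulatory subunit Prkar2a (1.68 ± 0.25 and 1.13 ± 0.25) were higher at low density. The regulatory subunit Prkar1a fell in H2R-deficient cells on the TMM scale (-1.08 ± 0.21) and was not called with total counts (-0.18, edgeR adjusted p = 0.406), under which 7 of the 10 rose and 0 fell in H2R-deficient and 4 rose in wild-type cells. The wild-type count of 2 for the protein kinase A genes was 0 without wild-type high-density library 2 or low-density library 2, and 1 without either library 4 or with only the groups compared. Of 11 A-kinase anchoring proteins, which tether the kinase, 4 rose in H2R-deficient cells (Akap1, Akap8, Akap11 and Akap8l, at 0.45 to 3.65) and 2 in wild-type cells (Akap8 and Akap11, at 0.78 and 1.08). With total counts 9 and 5 of the 11 rose, and the wild-type count was 0 with only the groups compared and without wild-type high-density library 2 or either wild-type low-density library. Of 7 other effectors and exporters, 3 rose and 1 fell in H2R-deficient cells and 1 rose and 1 fell in wild-type cells. Rapgef3, which encodes the cyclic AMP-activated exchange factor EPAC1, rose in both (2.24 ± 0.62 and 2.59 ± 0.67, edgeR adjusted p = 0.0137 and 0.0374). Its wild-type call was lost with limma-voom, with only the groups compared, and without either H2R-deficient low-density library or any 1 of the 4 wild-type libraries. Popdc2, a cyclic AMP-binding membrane protein, fell in both on the TMM scale (-1.54 ± 0.39 and -1.58 ± 0.38), with neither called under total counts and the wild-type call also lost with only the groups compared and without H2R-deficient low-density library 2, wild-type high-density library 2 or either wild-type low-density library. Abcc4, which exports cyclic AMP, rose in H2R-deficient cells (0.72 ± 0.20), as did the channel gene Hcn3 (2.96 ± 0.79).

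Of 12 genes of CREB family factors and coactivators, 9 fell and 1 rose in H2R-deficient cells on the TMM scale, and 0 passed in wild-type cells (2 fell with DESeq2), with medians of -0.81 and -0.42. None of the 12 passed in the difference of the density change between genotypes. The coactivators Ep300 (-1.33 ± 0.18) and Crebbp (-1.28 ± 0.22) and the factors Atf1 (-1.09 ± 0.16) and Atf2 (-0.92 ± 0.18) fell in H2R-deficient cells, and none of these 4 passed with total counts, under which 2 of the 12 rose and 0 fell. Of 20 cyclic AMP responsive genes, a list that holds Pde4b, Pde4d and Crem, 2 rose and 10 fell in H2R-deficient cells and 0 rose and 11 fell in wild-type cells, with medians of -0.73 and -1.18. Dusp1 (-1.34 ± 0.20 in H2R-deficient and -1.52 ± 0.20 in wild-type cells) and Junb (-1.47 ± 0.23 and -1.43 ± 0.23), immediate early genes, fell in both. Rgs1, a regulator of G protein signalling, rose in H2R-deficient cells (1.49 ± 0.24) and was not called in wild-type cells (0.24 ± 0.24). With total counts the list gave 5 higher and 1 lower in H2R-deficient cells and 2 higher and 8 lower in wild-type cells, with medians of 0.18 and -0.61. Without wild-type high-density library 2, or without low-density library 2, the wild-type count of falls dropped to 1.

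The genotype comparisons asked whether loss of H2R went with other levels of these genes at a given density. None of the 10 passed at either density in edgeR, where 0.0% of all tested genes passed at low density and 0.208% at high density. At low density 1 gene (Adcy4) and at high density 2 genes (Adcy9 and Pde3b) had an unadjusted p under 0.05. DESeq2 called 1 of the 10 at low density and 0 at high density, and limma-voom 0 at both. Over all 14909 tested genes at low density, 3128 had an unadjusted p under 0.05 in edgeR, DESeq2 called 915 and limma-voom 0. At high density 2788 of them had an unadjusted p under 0.05 in edgeR, DESeq2 called 699 and limma-voom 2. The 2 of 10 at high density were thus near the share over all tested genes. The pathway lists also gave 0 calls in edgeR in both comparisons. The median of the 10 genes was 0.25 at low and -0.37 at high density, against 0.05 and -0.05 over all tested genes.

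At low density Adcy4 was lower in H2R-deficient than in wild-type cells by a log2 fold change of -1.46 ± 0.31 (95% interval -2.16 to -0.77, edgeR adjusted p = 0.104), in 2 of 2 deficient libraries against both wild-type ones. DESeq2 and the fit with no filter on low counts called it (adjusted p = 0.0063 and 0.00203). For mature neutrophil markers the median log2 fold change at low density was -0.78, and for B cell markers 1.44. In both lists 0 were called (edgeR), and their part in the Adcy4 value was not tested. Pde4a had the largest positive value at low density, 0.95 ± 0.43 (interval -0.03 to 1.92, edgeR adjusted p = 0.248). At high density Adcy9 was at -1.40 ± 0.45 (interval -2.41 to -0.38, edgeR adjusted p = 0.164) and Pde3b at -1.01 ± 0.30 (interval -1.69 to -0.33, edgeR adjusted p = 0.141), and the deficient libraries of both genes lay below the wild-type ones. In the same comparison the median log2 fold change was -1.57 for macrophage markers, 0 of them called, -1.55 for monocyte markers, 2 called lower, and -1.41 for eosinophil markers, 1 called lower (edgeR); their part in these 2 values was not tested. Pde4b was lower in H2R-deficient libraries at both densities without passing, at -0.33 ± 0.20 (interval -0.79 to 0.13) at low and -0.40 ± 0.20 (interval -0.85 to 0.06) at high density. Gnas was at 0.25 ± 0.16 (interval -0.11 to 0.60) at low and 0.14 ± 0.16 (interval -0.22 to 0.49) at high density. The intervals of all genes but Adcy4 at low density, and of all but Adcy9 and Pde3b at high density, included 0.

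**Figure D5:**
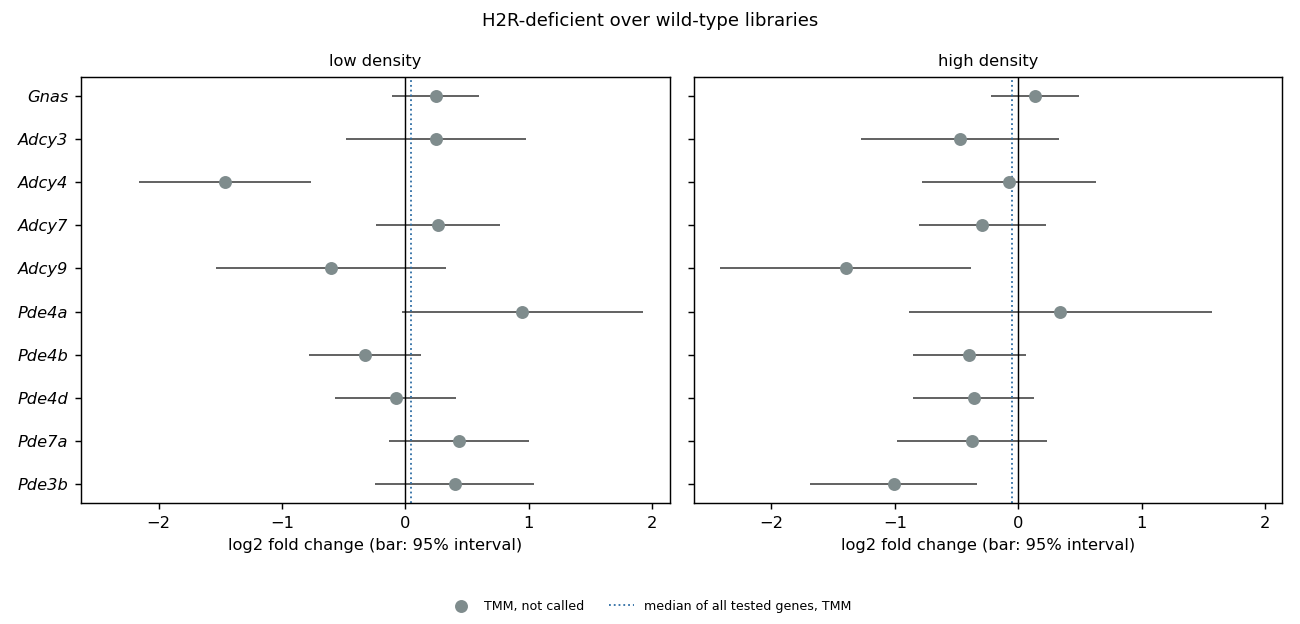
H2R-deficient over wild-type cells at low (left) and high (right) density, as log2 fold changes on the horizontal axis with 95% intervals and the median of all tested genes as a dotted line. No gene had an adjusted p under 0.05, and the intervals of Adcy4 at low density and of Adcy9 and Pde3b at high density lay below 0.

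The difference of the density change between genotypes was tested directly. None of the 10 passed, where 0.0% of all tested genes did, and 2 (Adcy4 and Pde3b) had an unadjusted p under 0.05. DESeq2 called 1 of the 10 (Pde3b) and 990 of all tested genes, limma-voom 0 of either, and 3150 genes had an unadjusted p under 0.05 in edgeR. The estimates were 1.41 ± 0.41 for Pde3b (95% interval 0.48 to 2.34, edgeR adjusted p = 0.110) and -1.39 ± 0.44 for Adcy4 (interval -2.38 to -0.40, edgeR adjusted p = 0.127). For Pde4b the estimate was 0.07 ± 0.29 (interval -0.58 to 0.71) and for Gnas 0.11 ± 0.22 (interval -0.39 to 0.61). Pde7a had an estimate of 0.81 ± 0.37 (interval -0.03 to 1.64, edgeR adjusted p = 0.248). In edgeR with TMM and the filter, and in limma-voom, calls made in H2R-deficient and not in wild-type cells were therefore not shown to differ between the genotypes. For Pde3b the difference depended on the method. It passed with DESeq2 (1.44, adjusted p = 0.0399), with total counts (1.75, edgeR adjusted p = 0.0437) and with no filter (1.47, edgeR adjusted p = 0.00297).

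For each gene the most similar profiles over the 8 libraries were sought among genes averaging 5 CPM or more, by the root mean square difference of log2 CPM centred on each gene's mean. Pde4b was closest to Marcksl1, Cxcl2 and Jdp2 (0.136, 0.137 and 0.140 log2 units). Adcy7 was closest to Tars2, Wdr4 and Fam53b (0.0945 to 0.103), Gnas to Taf6l, Galns and Rbm6 (0.0590 to 0.0658) and Pde4d to Nfkbib, Clec4n and Zfp703 (0.128 to 0.135). Pde3b was closest to Jade2, Grk6 and Idh3g (0.133 to 0.145) and Pde7a to Ylpm1, Xpo7 and Mbnl1 (0.0752 to 0.0813). The less abundant genes were Adcy3 with Pdxdc1, Arhgef6 and Qtrt1 (0.0823 to 0.0973), Adcy4 with Matk, Mir142hg and Sik2 (0.215 to 0.228), Adcy9 with Ap3m1, Arsb and Rcan1 (0.156 to 0.171) and Pde4a with Zmiz2, Dcaf1 and Dnmt1 (0.126 to 0.144). All of these values come from the same 8 libraries and the same scaling.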

How the data were processed

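The authors deposited raw counts of reads per gene for 8 libraries, without normalization, as featureCounts output per the file headers. Tools listed by the submitters' processing notes are STAR 2.5.2b, Subread 1.5.2 with featureCounts, Trimmomatic 0.36 and bcl2fastq 2.17.1.14, with the build GRCm38. No source used here gives the annotation release, the strand setting or the handling of reads with several matches.

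Symbols were assigned by identifier through GENCODE M21, which matched 48970 of 49315. Genes were filtered with filterByExpr by group, leaving 14909, scaled by TMM and fitted to all 8 libraries with 1 mean per group by robust quasi-likelihood (edgeR 4.0.16, R 4.3.3; 4 residual degrees of freedom). Benjamini-Hochberg adjustment ran over all tested genes, and an adjusted p under 0.05 was called. With 2 libraries a group, an exact test of 1 gene cannot go below p = 0.333, so p-values come from the model. Alternatives were total counts, DESeq2 size factors, no filter, DESeq2 1.42.0, limma-voom (limma 3.58.1), a replicate block, only the groups compared, and leaving out each library. Levels per kilobase use the gene lengths in the files. A count of 0 allows up to 0.0830 to 0.191 CPM on the TMM scale by library, with a floor of 3 counts and counting error only. Replicate libraries were not copies of each other (chi-square per degree of freedom 36.0 to 50.7).

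The 10 genes and all lists were chosen with earlier results of these data known. All 10 are named whatever their result, with every other detected adenylyl cyclase and cyclic AMP phosphodiesterase, the 3 most similar profiles per gene and at most 4 genes of a pathway list, those with the lowest adjusted p for density in H2R-deficient cells. Cenpo, Nespas, Gm20721, Hrh2 and marker genes are given as checks. Tests were tried on simulated counts before use.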

Additional observations from a re-analysis of the deposited data

Results flagged for a closer look

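For Adcy4, the density effect took opposite signs in the genotypes. H2R-deficient low-density libraries (1.77 and 2.40 CPM) lay below H2R-deficient high-density libraries (3.04 and 4.72), and wild-type low-density libraries (5.63 and 5.87) above wild-type high-density libraries (3.53 and 4.60). The test of the difference gave -1.39 ± 0.44 on the log2 scale and did not pass (edgeR, adjusted p = 0.127). With total counts the deficient change was 0.0072, so the signs were not opposite under that scaling.

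For Pde3b, H2R-deficient libraries lay below wild-type libraries at high density (5.25 and 7.84 against 16.5 and 9.79 CPM) and above them at low density (15.5 and 16.1 against 10.4 and 13.5 CPM). The difference of the genotype effects, low minus high density, was 1.41 ± 0.41 and did not pass in edgeR (adjusted p = 0.110). It passed with total counts (1.75, edgeR adjusted p = 0.0437), with no filter (1.47, edgeR adjusted p = 0.00297) and with DESeq2 (1.44, DESeq2 adjusted p = 0.0399).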

How the results depend on the processing

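For density in H2R-deficient cells, the calls of Pde4a, Adcy7 and Pde7a held under every alternative run. The count of the 10 genes that fell, 2, was 0 with total counts, 1 with no filter, 1 with only the groups compared, 3 with DESeq2 size factors and with DESeq2 (Pde4d added) and 1 to 3 without single libraries; the count that rose was 3 to 5 without single libraries. In wild-type cells the count that rose, 1, was 5 with total counts and 0 with DESeq2 size factors, limma-voom or only the groups compared, and 0 to 1 without single libraries. The count that fell, 2, was 1 with total counts, limma-voom or only the groups compared and 0 to 1 without single libraries. All genes called in wild-type cells, 1888, were 4946 with total counts, 3361 with no filter, 608 with only the groups compared and 123 to 1724 without single libraries.

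For genotype at high density, the count lower was 1 with no filter (Pde3b), and all genes called, 31, were 73 with total counts, 1095 with no filter, 699 with DESeq2, 2 with limma-voom, 0 with only the groups compared and 0 to 40 without single libraries. At low density 1 gene (Adcy4) was lower with no filter and with DESeq2, and all genes called, 0, were 1360 with no filter, 915 with DESeq2 and 0 to 121 without single libraries. For the difference of density effects, 1 gene (Pde3b) was higher with total counts, no filter and DESeq2, and all genes called, 0, were 635 with total counts, 1210 with no filter, 990 with DESeq2, 28 with the replicate block and 0 to 3 without single libraries.

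Total counts reversed, in H2R-deficient cells, Adcy4 (0.0072), Pde4d (0.40) and Pde8a (0.35); in wild-type cells Adcy9 (0.35), Pde3b (0.43), Pde1b (0.013), Pde2a (0.10) and Pde8a (0.33); and between genotypes at low density Pde4d (0.19). Gnas in wild-type cells turned to -0.067 with DESeq2 size factors and with DESeq2. Leaving out single libraries reversed values that had not passed: in wild-type density Pde3b (-0.47 to 0.29) and Gnas (-0.058 to 0.068), between genotypes at high density Adcy4 (-0.42 to 0.21), Adcy7 (-0.67 to 0.0068), Pde4a (-0.28 to 0.92) and Pde7a (-0.70 to 0.045), and in the difference of density effects Pde4b (-0.14 to 0.35) and Pde4d (-0.043 to 0.55). The causes were not tested. A lone remaining library was assumed to vary like the other groups.

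Replicate numbers are shared by low-density and high-density libraries of a genotype, but the labels do not say that they mark an animal or day. The deviations of same-numbered libraries correlated at 0.382 in H2R-deficient and 0.0304 in wild-type cells. With the replicate block all 30 values of the 10 genes in the density comparisons and their difference kept their side of the threshold, and all genes called were 8450 in H2R-deficient and 2621 in wild-type cells. No paired analysis was possible for the genotype comparisons because the groups share only the number 2. Genes with few counts, such as Pde4a at high density (7 to 18 counts), have wide intervals at this depth.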
